A study of Mus musculus with 4 samples.

Results

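The genes that write and erase DNA methylation were measured in haematopoietic stem and early progenitor cells lacking necdin, the product of the imprinted gene Ndn, and in wild type cells. The 7 genes are the DNA methyltransferases Dnmt1, Dnmt3a and Dnmt3b, their cofactor Uhrf1, and the TET dioxygenases Tet1, Tet2 and Tet3. They were chosen by name, and every probe set whose platform annotation gives that single symbol was taken, which gave 19 of the 45101 probe sets of a 1-colour Affymetrix array, for 7 of its 18194 named genes. The probe set with the highest mean log2 signal over the 4 arrays stands for its gene and is called its main probe set. Necdin null samples (n = 2 arrays) were LSK cells, the Lin-Sca-1+c-Kit+ fraction, sorted out of the marrow of mice rebuilt with necdin null fetal liver cells. Wild type samples (n = 2 arrays) were LSK cells of mice rebuilt with wild type fetal liver cells. Both groups were C57BL/6 and both had received 6.5 Gy, a sublethal dose, so neither holds unirradiated cells. The labels give no age, no null allele, no time after irradiation, no number of mice per array, and no step that removed LSK cells of the host.

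DNMT1 copies methylation onto the new DNA strand after replication, and UHRF1 reads half-methylated CpG sites and brings DNMT1 to them. DNMT3A and DNMT3B place methyl groups on unmethylated sites. TET1, TET2 and TET3 oxidise methylcytosine, the first step toward its removal. In blood formation, DNMT3A and TET2 are among the genes most often mutated in clonal haematopoiesis of humans, and mouse stem cells lacking either gain in self-renewal.

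The deposited values are MAS5 signals on a linear scale with a common trimmed mean, and their precision is limited by the 2 arrays per group. The labels do not say that the arrays of a group came from separate animals, so p-values cover the spread among these arrays alone, whether biological or technical. Ndn had signals of 55.4 and 105 on the necdin null arrays, against 253 and 255 on the wild type arrays, at its main probe set 1437853_x_at, and 1.74 and 4.86 against 504 and 329 at 1435383_x_at. The stem and progenitor gene Cd34 was bright on all arrays (13478 and 15252 in necdin null, 14722 and 13407 in wild type cells), Kit had 6049 and 3744 against 6617 and 3976, and Ly6a, which encodes Sca-1, was not analysed here. Of the T and NK lineage genes, Cd3e, Cd3g and Cd4 did not exceed 37.8, and Cd8a reached 64.0 on wild type replicate 2. Nkg7, a granule gene of NK and T cells, was bright (3537 and 4045 in necdin null, 3755 and 3047 in wild type cells). Genes of other lineages were also present. Csf1r, the brightest monocyte and macrophage marker, had 1272 and 2104 in necdin null and 834 and 3497 in wild type cells. Cd79b, the brightest B lineage marker, had 694 and 853 against 767 and 1231. The arrays of a group were not alike: Xist had 4841 and 76.8 on the necdin null arrays, against 9930 and 7182 on the wild type arrays, while Eif2s3y, a Y-linked gene, had 2273 and 2987 against 32.6 and 1974. Necdin null replicate 2 had the highest Gapdh 3' to 5' ratio, 15.8, where necdin null replicate 1 had 10.96 and the wild type arrays 9.96 and 11.7. The 7 neutrophil markers summed to signals of 74939 and 167757 in necdin null and 55563 and 112709 in wild type cells.

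Ranked by main probe set, the signals ran down from a bright set of Dnmt1, Dnmt3b and Uhrf1 through Tet1 and Dnmt3a, then Tet2, to Tet3 near the floor of the array. Over the 4 arrays the mean signal was 4158 ± 583 for Dnmt1, 3763 ± 297 for Dnmt3b and 3041 ± 535 for Uhrf1 (SD, n = 4 arrays of both groups). Tet1 had 527 ± 210, Dnmt3a 487 ± 158 and Tet2 199.6 ± 24.3. Tet3 had 20.7 ± 20.1, under the level of 30.3 below which genes were not tested. Among all probe sets, these signals lay at mean percentiles of 95.4, 94.95, 93.8, 77.5, 77.0, 67.2 and 27.6 in the same order. A MAS5 signal depends on the affinity of its probes and is not scaled per transcript length, so the order is one of probe set signals and not of transcript numbers.

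Neighbours in this order could not always be told apart. Dnmt1 exceeded Dnmt3b by 0.14 on the log2 scale and on 3 of 4 arrays, and Dnmt3b exceeded Uhrf1 by 0.32 and on 3 of 4 arrays, with array SDs of 0.22, 0.11 and 0.24 for Dnmt1, Dnmt3b and Uhrf1. Tet1 and Dnmt3a differed by 0.06, against array SDs of 0.67 and 0.45. The remaining steps were wider than the array spread. Uhrf1 lay 2.61 above Tet1, Dnmt3a 1.23 above Tet2 and Tet2 3.34 above Tet3 in mean log2 signal, each on 4 of 4 arrays and with no overlap between any of them.

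**Figure D1:**
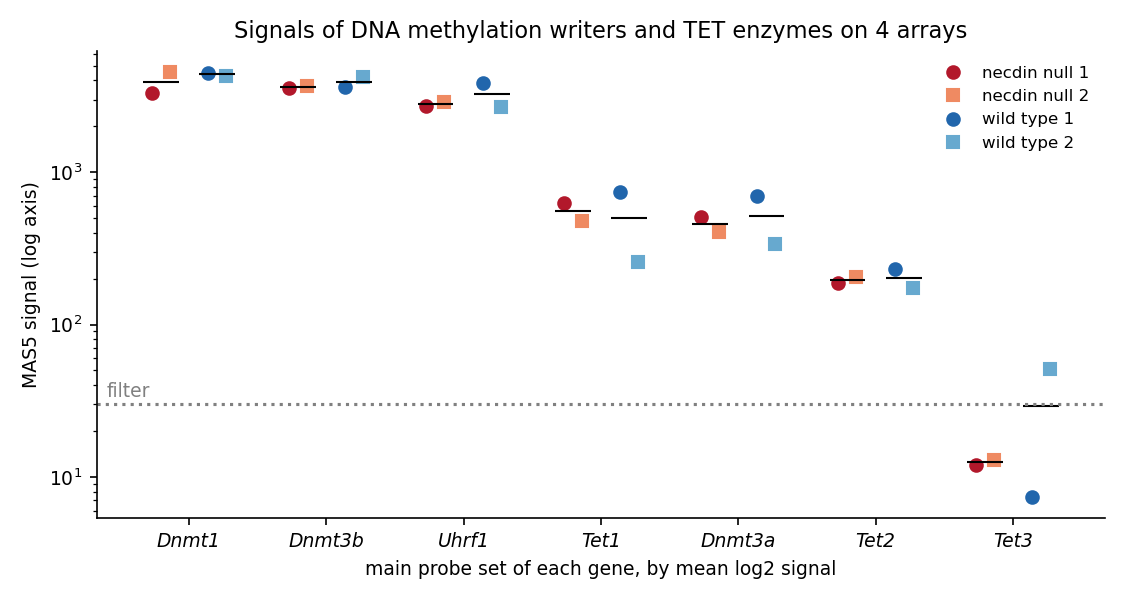
MAS5 signal (log axis) of the main probe set of the 7 genes, ordered by mean log2 signal. Points are arrays, necdin null left of wild type, short lines are group means, and the dotted line is the level of 30.3 under which genes were not tested. The 4 points of Dnmt1, Dnmt3b and Uhrf1 lie close together at 2696 or more, those of Tet1 and Dnmt3a spread widely in wild type cells, and Tet3 passes the line on wild type replicate 2 alone.

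Start-site sequences of the 7 genes, credited to RefSeq (GRCm38.p6), were searched for the letters bound by E2F, the family of factors that turns on replication genes and is known to act on Dnmt1 and Uhrf1. The letters were TTTCCCGC, TTTCGCGC, TTTGCCGC and TTTGGCGC on either strand, in windows from 250 bases before to 50 bases after each annotated start. Such a match was present in 2.26% of 32851 windows of all genes, and in any window of 2.6% of 27025 genes. Among the 12 windows of the 7 genes it was found in the third of 3 windows of Dnmt1 and the second of 2 of Uhrf1. It was in none of the windows of Dnmt3b, Tet1, Dnmt3a, Tet2 and Tet3. Every one of these letter strings holds a CpG. The matching windows had 33 CpG sites each, where all windows had a median of 7, and the shares were not matched for CpG content. The 3 matches are printed because they are what these 2 genes share, with the matching letters in capitals. They lie at chr9:20952824-20952853 (minus strand, 219 bases before the start), chr9:20952574-20952603 (minus strand, 33 bases after the start) and chr17:56304117-56304146 (plus strand, 185 bases before the start). The 2 Dnmt1 stretches flank the start, and the first carries the motif on the opposite strand. The matches are letters in a window and were not tested for binding or for a part in the signals.
Dnmt1, upstream: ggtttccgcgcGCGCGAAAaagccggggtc
Dnmt1, downstream: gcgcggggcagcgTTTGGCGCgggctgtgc
Uhrf1, upstream: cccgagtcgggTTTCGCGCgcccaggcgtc

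The windows differed in CpG, the dinucleotide on which these enzymes act. Windows of all genes had a median of 7 CpG sites. Those of Tet2 had 57 and the richest of Dnmt3a 47, above 99.8% and 98.6% of all windows. The richest windows of Dnmt1 and Uhrf1 had 33 each, Dnmt3b had 30, Tet3 22 and Tet1 17, while the first of the 3 Dnmt1 windows had 2. CpG content did not follow signal, since Tet2 had the richest window and a mean signal of 199.6. The 250 bases before the single listed start of a bright, an intermediate and a near-floor gene show the range, with each CpG in capitals: Dnmt3b at chr2:153649199-153649448 (plus strand, 21 sites), Tet2 at chr3:133544391-133544640 (minus strand, 51 sites) and Tet3 at chr6:83441679-83441928 (minus strand, 17 sites). The Tet2 stretch repeats 1 CpG-rich unit several times, and in Tet3 the sites crowd toward the start.
Dnmt3b: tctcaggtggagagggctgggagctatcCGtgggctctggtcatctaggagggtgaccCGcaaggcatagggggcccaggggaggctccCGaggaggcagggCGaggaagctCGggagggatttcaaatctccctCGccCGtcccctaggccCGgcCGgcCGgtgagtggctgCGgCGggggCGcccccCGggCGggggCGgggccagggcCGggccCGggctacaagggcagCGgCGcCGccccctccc
Tet2: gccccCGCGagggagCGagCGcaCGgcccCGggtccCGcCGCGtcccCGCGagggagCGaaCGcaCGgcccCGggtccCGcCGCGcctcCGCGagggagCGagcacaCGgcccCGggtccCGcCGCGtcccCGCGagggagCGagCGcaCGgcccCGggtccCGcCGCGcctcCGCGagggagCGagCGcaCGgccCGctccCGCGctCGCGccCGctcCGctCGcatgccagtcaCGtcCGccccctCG
Tet3: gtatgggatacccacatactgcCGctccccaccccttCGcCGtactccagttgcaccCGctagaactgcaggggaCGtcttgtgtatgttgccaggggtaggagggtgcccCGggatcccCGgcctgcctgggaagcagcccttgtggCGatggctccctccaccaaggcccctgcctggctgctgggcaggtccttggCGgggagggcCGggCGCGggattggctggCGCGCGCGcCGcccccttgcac

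Between necdin null and wild type cells, none of the 7 genes passed the test and none had groups that did not overlap at its main probe set. With limma, 0 of the 6 genes above the filter on low signals were called at an adjusted p under 0.05, where 0% of 12680 genes were called, and 0 of 6 had an unadjusted p under 0.05, where 3.02% of genes had. The adjusted p was 0.9985 for each of the 6. Groups were apart, with both values of 1 group above both of the other, for 0 of 6, against 30.5% of all genes. Of the 6, 5 were lower and 1 higher in necdin null cells (median of necdin null minus wild type on the log2 scale -0.10), against 54.1% lower and a median of -0.03 over all genes tested. When the log2 values of all probe sets of a gene were averaged instead, 2 of 6 were lower and the median was 0.15. In that setting 3 of 6 had groups apart, against 31.7% of all genes, with Dnmt1 lower (-0.29) and Dnmt3a (0.23) and Tet1 (0.63) higher, and 0 were called (limma adjusted p 0.997 or higher). After median centring 1 of 6 had groups apart (Dnmt3b, lower), against 30.6% of all genes. The distance between the 2 arrays of at least 1 group was as large as the group difference for 6 of 6. With 2 arrays a side this follows from the overlap of the groups and is no separate result. With 2 arrays a side, no exact two-sided permutation p can fall under 0.333.

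Dnmt1, the maintenance methyltransferase, had 3303 and 4549.5 on the necdin null arrays, against 4512 and 4267 on the wild type arrays, at its main probe set 1435122_x_at. The suffix _x_at marks a probe set with probes that also match other sequences, so its signal may include them. Necdin null replicate 1 alone was low, and replicate 2 was the highest of the 4. The log2 difference was -0.18 (standard error 0.21, 95% confidence interval -0.65 to 0.30), and without necdin null replicate 1 it was 0.05. The other 2 Dnmt1 probe sets were lower on both necdin null arrays. Probe set 1422946_a_at had 2080.2 and 2145 on the necdin null arrays, against 2907 and 2375 on the wild type arrays (log2 difference -0.31, standard error 0.20). Probe set 1447877_x_at had 1659.5 and 1899 against 2401 and 2179.6 (log2 difference -0.37, standard error 0.20). In a limma fit over the 27061 probe sets above the filter, of which 0% were called and 31.4% had groups apart, both had an adjusted p of 0.996. When each array was left out in turn, their differences ran from -0.46 to -0.17 and from -0.46 to -0.27. Groups that are apart cannot change sign in this way, so these ranges add nothing to their being apart.

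Uhrf1, which recruits DNMT1, had 2729 and 2908 in necdin null and 3832 and 2696 in wild type cells at its main probe set 1415810_at. Wild type replicate 1 stood above the other 3 arrays, which lay close together. The log2 difference was -0.19 (standard error 0.22, 95% confidence interval -0.68 to 0.30), and without wild type replicate 1 it was 0.06. The second probe set, 1415811_at, was dim, with 143 and 171 against 104 and 187, and there wild type replicate 1 was the lowest.

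Among the 7 main probe sets that of Dnmt3b varied least between arrays. This probe set, 1449052_a_at, had 3554 and 3672 on the necdin null arrays, against 3622 and 4202 on the wild type arrays, a range of 0.24 on the log2 scale, where the 500 genes nearest in level had a median range of 0.36. The log2 difference was -0.11 (standard error 0.18, 95% confidence interval -0.53 to 0.31), and it stayed below 0 without each array in turn (-0.22 to -0.0039). Probe set 1418351_a_at had 1526 and 1322 against 815 and 1667, with wild type replicate 1 alone low, a wider range of 1.03 and a difference of 0.28 (standard error 0.33).

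Dnmt3a, the other de novo enzyme, had 511 and 406 in necdin null and 698 and 336 in wild type cells at its main probe set 1460324_at. The wild type arrays were the highest and the lowest of the 4 and enclosed both necdin null arrays. The log2 difference was -0.09 (standard error 0.37, 95% confidence interval -0.93 to 0.76), and leaving out wild type replicate 1 gave 0.44; it was 0.08 without necdin null replicate 2 and -0.61 without wild type replicate 2. The 5 probe sets of Dnmt3a did not show 1 pattern. Probe set 1423065_at had 492 and 561 against 178 and 722, and 1423066_at had 430.1 and 356 against 204 and 513, so that wild type replicate 1 was lowest where the main probe set had it highest. Probe set 1423063_at had 509.6 and 577 against 521 and 279, and 1423064_at had 125 and 144 against 141 and 148. Their log2 differences were 0.54, 0.27, 0.51 and -0.10 in that order, with standard errors of 0.35 to 0.57.

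Among the main probe sets above the filter that of Tet1 varied most, while over all probe sets Dnmt3a 1423065_at had the widest range above the filter, 1.99. The main probe set of Tet1, 1455425_at, had 625 and 481 in necdin null and 746 and 257 in wild type cells, a range of 1.52 on the log2 scale, wider than that of 88.0% of genes, where the 500 genes nearest in level had a median range of 0.61. The wild type arrays again enclosed both necdin null arrays. The log2 difference was 0.32 (standard error 0.46, 95% confidence interval -0.72 to 1.35). It rose to 1.08 when wild type replicate 1 was left out, whereas dropping wild type replicate 2 turned it to -0.44. All 4 Tet1 probe sets had a positive difference, but the sign did not rest on the same arrays. Probe set 1429448_s_at had 254 and 167 against 81.1 and 268, and 1419896_at had 139 and 113 against 41.5 and 144, both lowest on wild type replicate 1. Without that array their differences were -0.37 and -0.19. Only 1419897_at had groups apart, at 69.4 and 44.9 against 31.2 and 18.7 (log2 difference 1.09, standard error 0.66) (adjusted p = 0.996) at signals close to the filter.

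Tet2 had 188 and 206 in necdin null and 230.2 and 174 in wild type cells at its main probe set 1455300_at. The groups overlapped, and the range of 0.40 compared with a median of 0.81 for the 500 genes nearest in level. The log2 difference was -0.02 (standard error 0.38, 95% confidence interval -0.88 to 0.83), and leaving out wild type replicate 1 gave 0.18, leaving out necdin null replicate 1 gave 0.04. Probe set 1438781_at had 262 and 155 against 216 and 97.9 (log2 difference 0.46, standard error 0.51). Tet3 had a single probe set, 1439324_at, with 12.05 and 12.8 in necdin null and 7.42 and 50.7 in wild type cells. It did not pass the filter; in a fit without it the log2 difference was -0.61, standard error 0.89, and 0.53 without wild type replicate 2. The confidence intervals of Dnmt3a, Tet1 and Tet2 are wide, and differences within them were not detectable with these arrays.

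**Figure D2:**
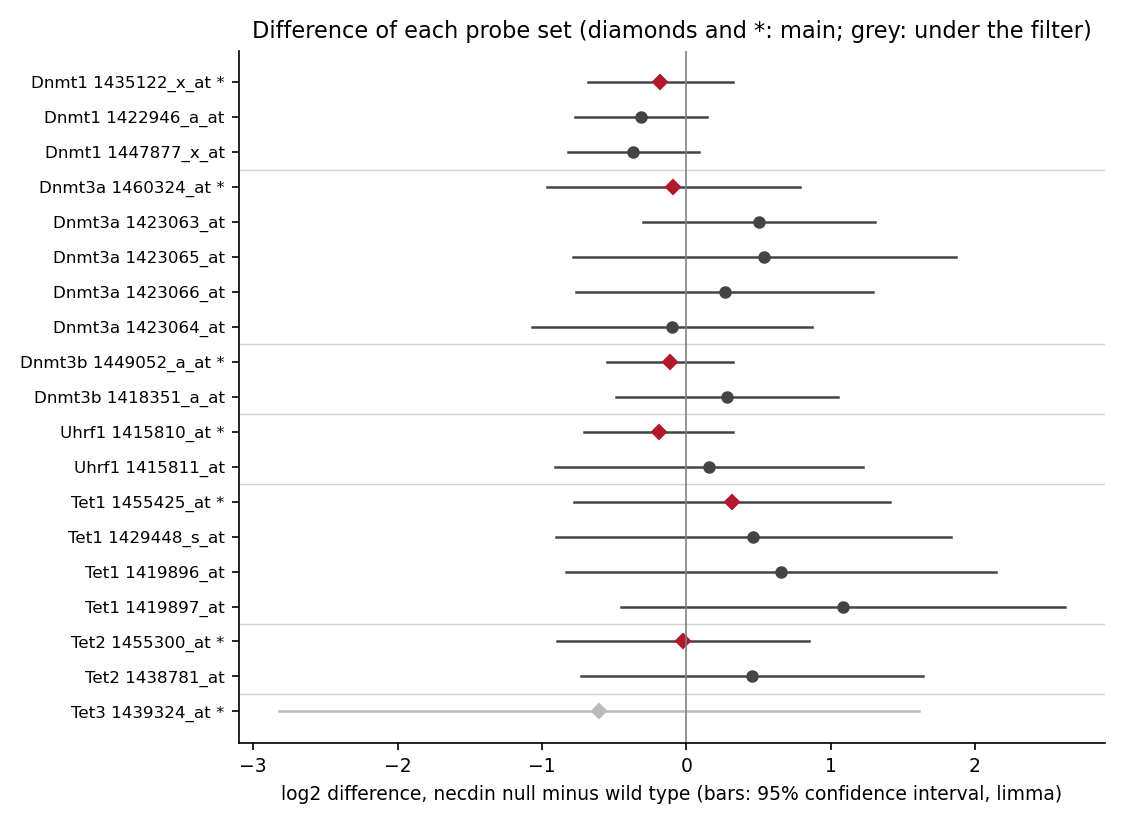
Log2 difference, necdin null minus wild type, of all 19 probe sets with its 95% confidence interval from limma, by gene. Diamonds mark the main probe sets and grey the single Tet3 probe set under the filter. The interval of each of the 19 includes 0, the intervals of the 3 Dnmt1 probe sets lie mostly to the left of it, and those of the 4 Tet1 probe sets mostly to the right.

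Probe sets of a gene often pointed in different directions. In necdin null cells 10 of the 18 probe sets above the filter had higher and 8 had lower signals, where 50.5% of all probe sets were lower. Groups were apart for 3 of the 18 (2 of Dnmt1, lower, and 1 of Tet1, higher), a smaller share than the 31.4% of all probe sets. All 6 genes above the filter had at least 2 such probe sets, and for 4 of them (Dnmt3a, Dnmt3b, Uhrf1 and Tet2) the directions were mixed, a share of 66.7% against 57.7% over 5786 genes with 2 or more. The 2 wild type arrays held most of the extremes and changed places between probe sets. Wild type replicate 1 had the highest signal of the 4 at 4 of the 7 main probe sets and the lowest at 1, whereas among the 12 other probe sets it had the lowest signal at 6 and the highest at 2. Wild type replicate 2 had the lowest signal at 4 of the 7 main probe sets and the highest at 2, and among the 12 others the highest at 7 and the lowest at 3. Over all probe sets above the filter, wild type replicate 1 was lowest at 26.6% and highest at 22.9%, and wild type replicate 2 highest at 28.3% and lowest at 23.4%. Over the main probe sets of all 12680 genes tested, wild type replicate 1 was highest at 26.4% and lowest at 23.6%. There wild type replicate 2 was lowest at 23.2% and highest at 28.7%. Probe sets of a gene share their arrays and are not independent, so these counts are a description and have no test. Which exons or isoforms each probe set hits, and how far from the 3' end it lies, was not analysed here.

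**Figure D3:**
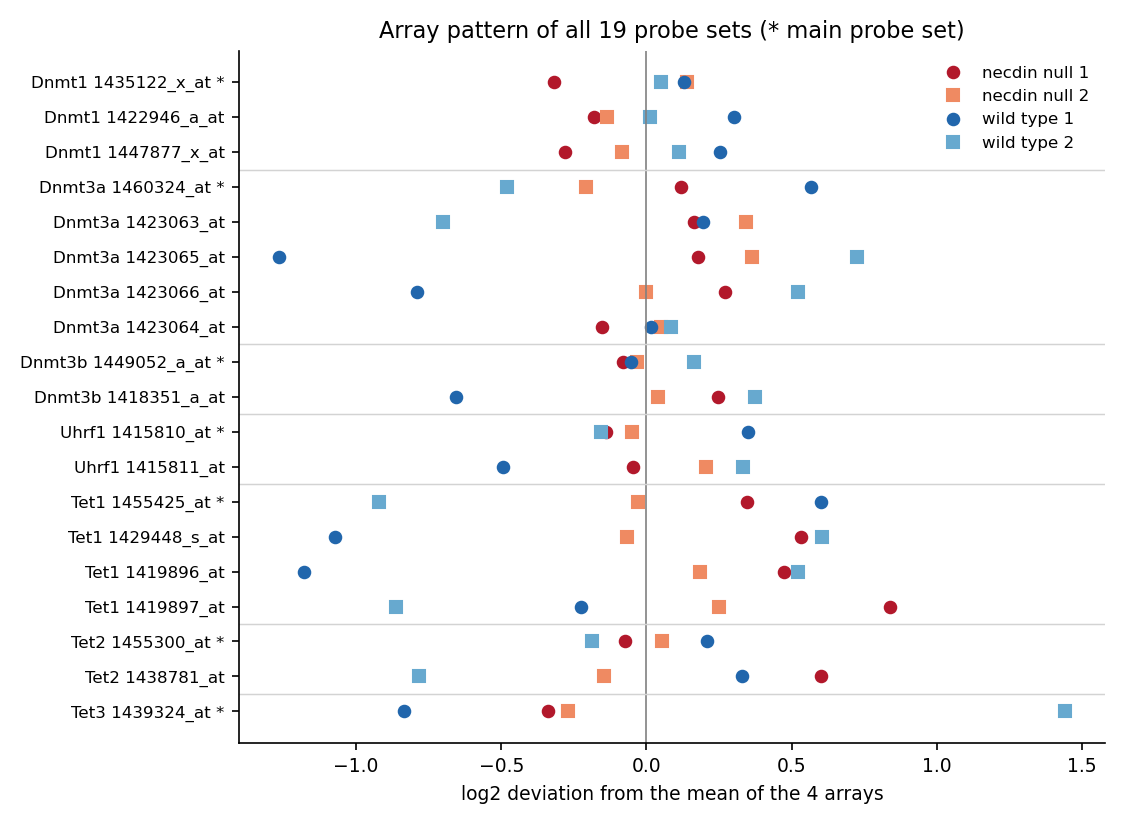
Log2 signal on each array as the deviation from the mean of the 4 arrays, for all 19 probe sets grouped by gene, with main probe sets starred. Wild type replicate 1 is at the right for Dnmt3a 1460324_at, Uhrf1 1415810_at and Tet1 1455425_at and at the left for Dnmt3a 1423065_at, Dnmt3b 1418351_a_at, Uhrf1 1415811_at and Tet1 1419896_at.

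The main probe sets of Tet1 and Dnmt3a ordered the arrays alike, with wild type replicate 1 highest, then necdin null replicate 1, necdin null replicate 2 and wild type replicate 2. Of the 6 stem and progenitor markers measured, 1 had this order, the transcription factor gene Hlf. Its signals were 4997 and 2674 in necdin null and 6110 and 2637 in wild type cells. The share of all genes with this order was not counted, and other probe sets of Tet1 and Dnmt3a had wild type replicate 1 lowest. Flt3, a receptor gene of early progenitors, was instead lower on both replicate 1 arrays (3254 and 4288 in necdin null, 2845 and 4614 in wild type cells). Kit, the receptor of the sort, was higher on both replicate 1 arrays, and the summed neutrophil markers were lower on both. All 7 neutrophil markers were higher on average in necdin null cells (median log2 difference 0.60, 0 passed), where 45.9% of all genes were higher. Groups were apart for 1 of the 7, where 12.8% of all genes were higher with groups apart. In bulk RNA, fewer cells of a type and less RNA per cell cannot be told apart, and the part of these cell type differences in the values of Tet1 and Dnmt3a was not tested. By the distance between log2 deviations over the 4 arrays, the genes most like Dnmt1 were D330050G23Rik (distance 0.02), Tmem177 (0.03) and Acot8 (0.04), and those most like Tet1 were Dbil5 (0.14), Zfp963 (0.14) and 4930549C15Rik (0.15). With 4 arrays, such closeness is a description only.

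**Figure D4:**
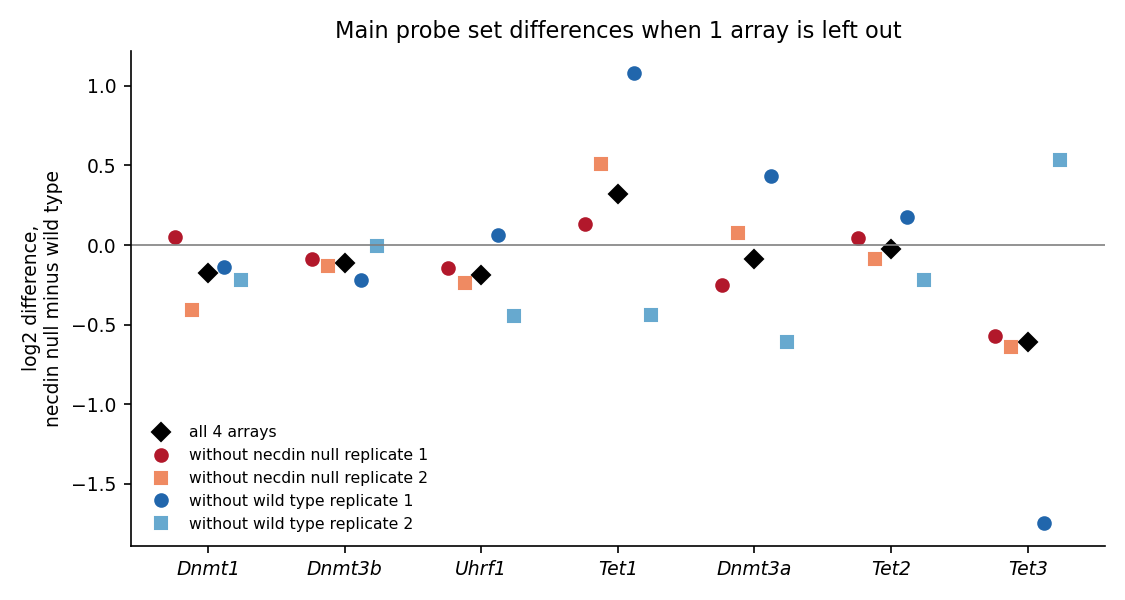
Log2 difference, necdin null minus wild type, of the main probe set of each gene with all 4 arrays (diamonds) and with each array left out. Dnmt3b stays at or below 0 throughout, while Tet1 runs between -0.44 and 1.08 and Dnmt3a between -0.61 and 0.44, the extremes being set by the 2 wild type arrays.

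The other genes of the methylation cycle showed no called change either. Among 17 tested partners of maintenance and targeting, 0 passed, 8 were higher and 9 lower, and 4 had groups apart (1 higher, 3 lower), where 30.5% of all genes had. Their median log2 difference was -0.03. Trim28, a corepressor that protects methylation at imprinted sites, was the brightest, at 15798 and 22001 in necdin null and 14913 and 16799 in wild type cells. Ehmt1, a histone H3 lysine methyltransferase, had 1630.4 and 1799.7 against 1015 and 1349 (log2 difference 0.55, standard error 0.22). Kdm1a, the histone demethylase LSD1, had 2267 and 2406 against 3487 and 2828 (log2 difference -0.43, standard error 0.19). Both had groups apart and a limma adjusted p of 0.9985. Dnmt3l, the catalytically inactive cofactor of the de novo enzymes, had signals of 40.6 and 11.1 against 42.0 and 41.1, close to the filter.

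Among 8 tested genes listed as methyl-CpG readers and their relatives, 0 passed. The difference was positive for 6 and negative for 2 (median 0.14). Groups were apart for 1 higher and 1 lower gene, where 12.8% and 17.7% of all genes were so. The list includes the relatives Mbd3 and Mbd6, and these data do not show which listed proteins bind methylated CpG. Mbd1, a repressor that binds methylated CpG, was the brightest at 2578 and 2995 in necdin null and 2513 and 2583 in wild type cells. Zbtb38 had a difference of 0.29 (standard error 0.28), Mbd3, which is part of the NuRD complex, -0.24 (0.29) and Mbd6 -0.30 (0.35).

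Among 16 tested partners of demethylation, 0 passed, 8 were higher and 8 lower, and 6 had groups apart (1 higher, 5 lower, where 12.8% and 17.7% of all genes were so), with a median of -0.06. Smug1, a uracil glycosylase of base excision repair, had 469 and 362 on the necdin null arrays, against 791 and 601 on the wild type arrays (log2 difference -0.74, standard error 0.28) (limma adjusted p = 0.9985). Idh1, which makes the cosubstrate of TET enzymes, had 1813 and 2351 against 2397 and 2759 (-0.32, standard error 0.21). Ogt, a sugar transferase that binds TET proteins, had 3389 and 2878 against 4601 and 3182, with groups that overlapped (-0.29, standard error 0.22). Apex1, the endonuclease of base excision repair, was the brightest, at 17140 and 24599 against 16108 and 19535. Tdg was not analysed here.

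Among 10 tested genes of S-adenosylmethionine supply, which provides the methyl group, 0 passed; 7 had a positive and 3 a negative difference (median 0.04). Ahcy, which removes the inhibitory product of methylation, was the brightest, at 12667 and 11587 in necdin null and 12349 and 9343 in wild type cells. Mtap (0.19, standard error 0.18) and Shmt2 (0.13, standard error 0.18) were higher on both necdin null arrays (limma adjusted p = 0.9985 for each). They were the only 2 of the 10 with groups apart, where 12.8% of all genes were higher with groups apart. Among 27 tested S phase genes, during which Dnmt1 and Uhrf1 act, 0 passed, 11 were higher and 16 lower, and 9 of 27 had groups apart (5 higher, 4 lower), near the 30.5% of all genes. Their median was -0.03. Mki67, the proliferation marker, had 1049.6 and 1493 against 2117 and 1846 (-0.66, standard error 0.23), and Gins1, a helicase subunit, had 2895 and 3009.96 against 3919.6 and 3591 (-0.35, standard error 0.18). Fen1, the flap endonuclease, had 12516 and 19564 against 11930.1 and 11253 (0.43, standard error 0.25). Mcm7, another helicase subunit, was the brightest at 24682 and 34480 against 24579 and 24096.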

How the data were processed

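The authors deposited linear intensity values, made with MAS5, per the submitters' processing notes. A version of MAS5 was not given in the sources used here. Biotin-labelled cRNA was hybridised, per the labels' protocols. The 2% trimmed mean was 500.004 on each of the 4 arrays. Of 45101 probe sets, 34958 had 1 symbol in the platform annotation, 932 several and 9211 none; only the first were named. Values were taken as log2(signal + 3.80), the pseudocount being the 10th percentile of all values, so differences of low genes are understated. Genes at or above log2 5.09, the 40th percentile of probe set means, were kept (12680). Necdin null minus wild type was fitted with limma 3.58.1 (R 4.3.3; lmFit and eBayes with the trend option; two-sided p, adjusted by Benjamini-Hochberg over all genes, threshold 0.05), and separately over probe sets. The code was tested on simulated data.

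The members, gene lists, named genes and alternatives were chosen with earlier results of these data known, and the lists were given no test. Named were the members, Ndn, Kit, and the brightest gene of each methylation or S phase list and its 3 of smallest p. The brightest gene of some marker lists was also named, and for 2 members the 3 genes of most similar array pattern. Cd3e, Cd3g, Cd4, Cd8a, Xist, Eif2s3y, Hlf and Flt3 lie outside this rule and were chosen after their values were seen. Alternatives changed the pseudocount, filter, normalization, variance trend and probe set choice, blocked on the replicate number, or dropped 1 array at a time. Of 10 marker lists of cell types, medians not given in the report were -0.06 (stem and progenitor), -0.03 (monocyte and macrophage), -0.26 (B lineage), 0.11 (T and NK lineage), 0.11 (erythroid), 0.06 (megakaryocyte), -0.59 (mast cell and basophil) and -0.41 (dendritic), with 0 genes called. Several listed genes had no probe set of a single symbol and were not analysed here. No outlier test was made, since groups held 2 arrays.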

Additional observations from a re-analysis of the deposited data

How the results depend on the processing

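No member gene was called under any alternative run that kept 2 arrays per group (limma adjusted p 0.95 or higher). Over the array 0 genes were called, but 3 with the replicate block (Ddit4, Gas2l3 and Tcl1b3). Fits with 1 array left out hold a group of 1 array, so only their differences are given. The labels do not say that replicate numbers pair the arrays, and same-numbered arrays had deviations that correlated at 0.11. With the block the member differences were the same in value, and quantile normalization with the block, added after seeing the data, called 0. When 1 array was left out, the lone array of its group was assumed to vary like the others, and the differences ran from -0.41 to 0.052 for Dnmt1, -0.61 to 0.44 for Dnmt3a, -0.22 to -0.0039 for Dnmt3b, -0.44 to 0.063 for Uhrf1, -0.44 to 1.08 for Tet1, -0.22 to 0.18 for Tet2 and -1.75 to 0.53 for Tet3. The sign turned for Dnmt1 without necdin null replicate 1, for Dnmt3a without necdin null replicate 2 and without wild type replicate 1, for Uhrf1 without wild type replicate 1, for Tet1 and Tet3 without wild type replicate 2, and for Tet2 without necdin null replicate 1 and without wild type replicate 1. The median of the members ran from -0.33 to 0.12, with 2 to 6 of them lower. The companion medians ran from -0.0027 to 0.023 (maintenance and targeting), 0.029 to 0.20 (readers), -0.18 to -0.019 (demethylation), -0.035 to 0.11 (S-adenosylmethionine) and -0.095 to 0.053 (S phase). Among the other probe sets, alternatives added after seeing the data, the differences ran for Dnmt3a from -0.20 to 0.0015 (1423064_at), 0.058 to 0.95 (1423063_at), -0.46 to 1.54 (1423065_at) and -0.39 to 0.92 (1423066_at), for Dnmt3b from -0.23 to 0.80, for Uhrf1 from -0.25 to 0.57, for Tet1 from -0.19 to 1.51 (1419896_at), -0.37 to 1.31 (1429448_s_at) and 0.77 to 1.41 (1419897_at) and for Tet2 from -0.10 to 1.01. With the mean of all probe sets, Dnmt1 was at -0.29, Dnmt3a at 0.23, Dnmt3b at 0.086, Uhrf1 at -0.015, Tet1 at 0.63 and Tet2 at 0.22, the member median at 0.15 with 2 lower, and the companion medians at 0.15 (maintenance and targeting), 0.018 (readers) and 0.12 (S-adenosylmethionine). Without probe sets ending in _s_at, _x_at and _a_at, 3 of 4 members tested were lower, and the medians were 0.074 (demethylation) and -0.19 (S phase). After median centring the median over all genes stood at -0.11, not -0.03, and 64.2%, not 54.1%, were lower. Dnmt3a was then at -0.17, Dnmt3b at -0.19 with groups apart (30.6% of all genes), Tet2 at -0.10 and the member median at -0.18, and the companion medians were -0.11 (maintenance and targeting), -0.14 (demethylation) and -0.038 (S-adenosylmethionine). The cause was not tested.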
